A study of Homo sapiens with 20 samples.

Results

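The comparison described here is the addition of DMSO to HepaRG cells at a matched day of culture. Its members were the 4 arrays titled day 30, plus DMSO (D30 + DMSO) and the 4 arrays titled day 30, minus DMSO (D30 − DMSO), 8 of the 20 one-colour Agilent arrays of the series. HepaRG is a human hepatic cell line that grows as a progenitor and matures into hepatocyte-like and biliary-like cells, which stay mixed in the culture. All 8 cultures were grown in William's E medium with serum, insulin and hydrocortisone. D30 + DMSO cells received 2% DMSO from day 15 to day 30, and D30 − DMSO cells received none up to day 30. The other arrays of the series held day 4 (D4), day 15 (D15) and day 34 cells taken 4 days after DMSO removal (D34 ± DMSO), and they entered the model as further conditions. The 4 arrays of a condition were described as independent experiments. RNA came from the whole culture, so fewer cells of a type and less RNA per cell cannot be told apart.

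Dimethyl sulfoxide is a polar solvent that has long been used to keep cultured hepatocytes and hepatoma cells in a differentiated state. Adult hepatocytes are defined by the enzymes they carry, first of all the cytochrome P450 enzymes, haem proteins of the endoplasmic reticulum that oxidise drugs, steroids and fatty acids. Several P450 genes are switched on by the nuclear receptors PXR (NR1I2) and CAR (NR1I3), which sense foreign compounds, and their level drops quickly when hepatocytes are placed in culture.

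Each value below is the log2 of a probe's scaled signal, set so that 0 is the 75th percentile of its array. Values of different probes are therefore not compared with each other. Between 58.7% and 71.2% of probes were well above background on the 8 arrays, and the number of arrays limits the precision. Pearson's r over tested genes was 0.969 to 0.991 between D30 − DMSO arrays, 0.968 to 0.992 between D30 + DMSO arrays and 0.934 to 0.975 between the conditions. One array stood apart: D30 − DMSO replicate 4 was separated from its 3 fellows by a gap that took up most of their range (past Dixon's 95% limit) for 2253 of 22176 genes (10.2%), against 97 to 167 genes for each of those fellows. In the other condition the same held for 754 genes on D30 + DMSO replicate 4 and for 74 to 187 on each of the rest. Both replicate 4 arrays lay on slide 4, which was scanned in a separate session and also held D30 + DMSO replicate 3. D30 − DMSO replicate 4 was the only array of its condition there, so array, slide and session cannot be told apart. The number of calls is therefore also given without D30 − DMSO replicate 4. The labelled cell type was borne out by its markers: ALB, TTR, KRT8, KRT18 and KRT19 were well above background on all 8 arrays.

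DMSO shifted many genes, and more of them down than up. Of 22214 genes tested, 385 (1.73%) rose and 929 (4.18%) fell on DMSO, 1314 genes (5.92%) in all, a call needing more than a 2-fold change and an adjusted p under 0.005 in limma. Only 64 of the rises exceeded 4-fold, against 329 of the falls, and the median log2 change was 1.38 among the rises and −1.70 among the falls. Over all tested genes the median was 0.04. The arrays of the 2 conditions did not overlap for 384 of the 385 and 917 of the 929 genes, against 2780 and 2787 of all genes tested. The 95% interval of the change lay within 2-fold in both directions for 14434 genes (65.0%). With D30 − DMSO replicate 4 left out the counts were 294 higher and 851 lower. Under the normexp background correction, which starts from the raw foreground and background intensities, they were 262 and 409.

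**Figure D1:**
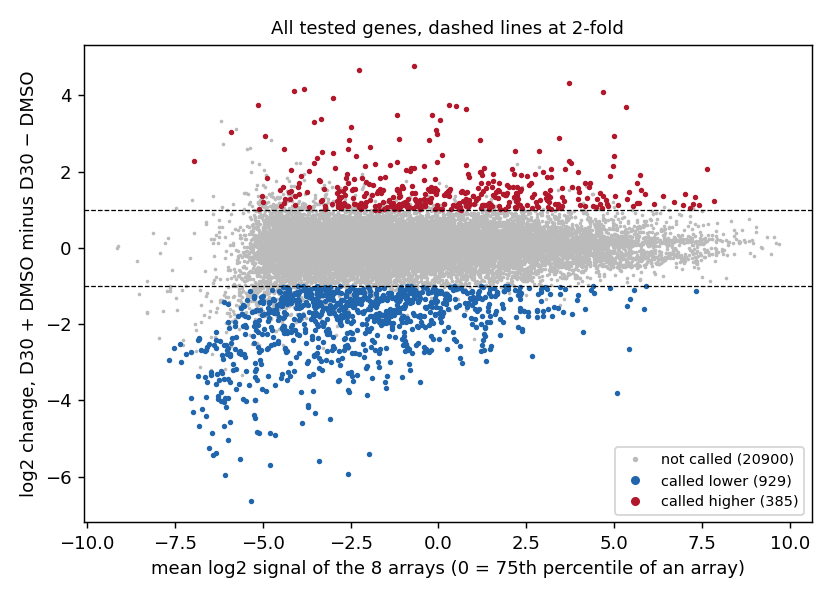
Mean log2 signal of the 8 arrays (horizontal axis, 0 at the 75th percentile of an array) against the log2 change, D30 + DMSO minus D30 − DMSO (vertical axis), for each of the 22214 genes tested. The 929 genes called lower spread further from 0 than the 385 called higher, mainly at low signal.

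By mean signal over both conditions, the lower genes were dimmer than the higher genes. That mean includes the D30 + DMSO arrays, so a fall itself lowers it and a rise lifts it. Among the 5554 dimmest genes tested 41 were called higher and 382 lower, and among the 5554 brightest 152 were called higher and 113 lower. On 134 of the 929 lower genes no D30 + DMSO array was well above background, so a fold, where one can be given, is only a lower bound, and on 3 of the 385 higher genes no D30 − DMSO array was. Where only 1 or 2 of the 4 dimmer arrays were well above background, as for PLAUR, POLE2, POSTN, TNC, ACTG2, HAL, IL6, CYBA and CX3CR1 below, the fitted change rests partly on background. Slide 3 and slide 4 each carried 1 D30 − DMSO and 2 D30 + DMSO arrays. All 385 higher genes were positive and all 929 lower genes negative within both slides, as were 9926 and 7199 of all genes tested. Because the genes were called on these arrays, the within-slide values describe them and do not test them. With slide as a block in the model the counts were 566 higher and 1053 lower.

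**Figure D2:**
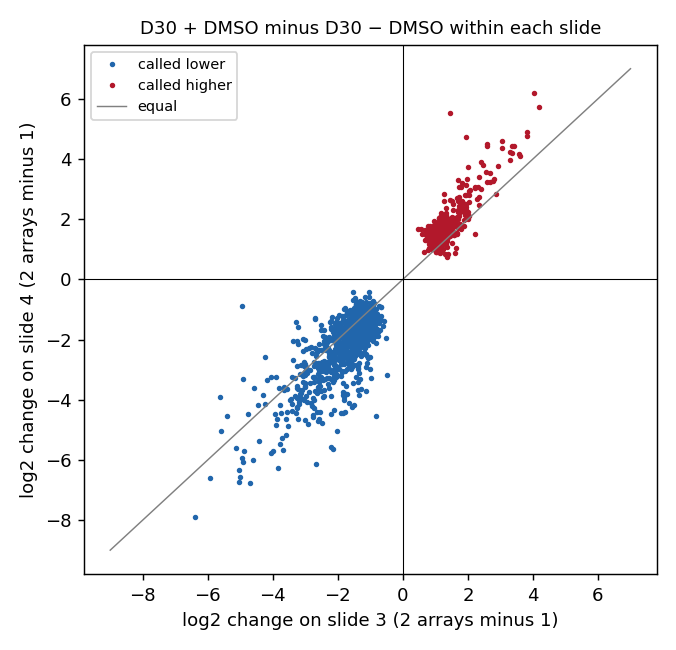
Log2 change of each called gene within slide 3 (horizontal axis) and within slide 4 (vertical axis), each being the mean of 2 D30 + DMSO arrays minus the single D30 − DMSO array on that slide. All 385 genes called higher lie in the upper right and all 929 called lower in the lower left quadrant, where 9926 and 7199 of all 22214 tested genes lie. The genes were called on the same arrays.

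P450 enzymes made up 5 of the 12 largest rises. Among genes measured on every D30 + DMSO array these were CYP2E1, CYP2B6, PCK1, CYP3A4, APOA4, CYP2A7, GNMT, ACSM2B, CYP2A13, CYBA, DHRS2 and CX3CR1, with log2 changes from 4.76 down to 3.03. The promoters of the first P450 genes and of SPOCD1, which was far lower with DMSO, are shown from RefSeq (GRCh38.p14) because these 4 genes mark the comparison. Each sequence runs 5′ to 3′ on the gene's own strand and ends at the base before the annotated start: CYP3A4 at chr7:99784185-99784364 (minus strand), CYP2B6 at chr19:40991112-40991281 (plus), CYP2E1 at chr10:133527173-133527362 (plus) and SPOCD1 at chr1:31816023-31816142 (minus).
CYP3A4: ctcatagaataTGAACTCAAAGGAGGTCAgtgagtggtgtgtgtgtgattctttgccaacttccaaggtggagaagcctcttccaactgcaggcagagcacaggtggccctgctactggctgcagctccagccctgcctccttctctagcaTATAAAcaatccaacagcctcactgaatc
CYP2B6: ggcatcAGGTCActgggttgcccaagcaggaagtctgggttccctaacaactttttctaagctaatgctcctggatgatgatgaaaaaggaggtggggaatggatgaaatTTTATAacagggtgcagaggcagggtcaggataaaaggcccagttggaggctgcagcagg
CYP2E1: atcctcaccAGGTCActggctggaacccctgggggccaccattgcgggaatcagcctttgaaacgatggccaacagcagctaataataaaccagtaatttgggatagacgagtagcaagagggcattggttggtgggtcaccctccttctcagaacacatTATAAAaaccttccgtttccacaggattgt
SPOCD1: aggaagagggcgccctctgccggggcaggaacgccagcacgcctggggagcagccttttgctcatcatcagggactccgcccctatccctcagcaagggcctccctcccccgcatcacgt
The capitals mark, in CYP3A4, the everted repeat to which PXR is known to bind, searched as TGAACT, any 6 bases, AGGTCA. In CYP2B6 and CYP2E1 they mark the nuclear receptor core AGGTCA, which is also the right-hand part of the repeat, and in all 3 P450 genes TATAAA or its complement. On both strands of the 250 bases before the start, the repeat was present in 3 of 27305 promoters (0.011%), AGGTCA in 12.1% and TATAAA in 11.1%. AGGTCA was in 9.39% of the promoters of tested genes, 12.6% of those of higher genes and 12.4% of those of lower genes. TATAAA was in 760 of the 11337 promoters of tested genes. It was in 23 of the 215 of higher genes and 63 of the 539 of lower genes. Neither motif thus set the higher genes apart from the lower genes. The other genes that held the repeat were CYP3A5, with a log2 change of 1.58 that was not called (adjusted p = 0.0368), and ITGB1BP2, with 0.92 (adjusted p = 0.123). No capital is shown for SPOCD1, whose window held none of the 13 motifs searched.

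CYP3A4, the main drug-oxidising P450 of adult liver, read 2.83, 2.95, 2.89 and 1.89 on D30 − DMSO replicates 1 to 4 and 6.70, 6.57, 6.88 and 6.70 on the D30 + DMSO replicates. CYP2B6, a target of CAR, read 2.00, 1.46, 1.60 and 1.19 without DMSO and 5.91, 5.71, 6.35 and 5.55 with it. CYP2E1, which oxidises ethanol and small solvents, read −2.43, −2.79, −2.67 and −4.42 without DMSO and 1.54, 1.65, 1.75 and 1.77 with it. In all 3 genes every D30 + DMSO array lay above every D30 − DMSO array, as in 384 of the 385 higher genes and 2780 of all genes tested. Replicate 4 was the lowest D30 − DMSO array in all 3 genes. CYP3A4 rose 16.8-fold (log2 change 4.07 with an SE of 0.26, adjusted p = 1.02e-08). The log2 change of CYP2B6 was 4.32 with an SE of 0.27 (adjusted p = 1.02e-08) by its brightest probe, while a second CYP2B6 probe, above background on all 8 arrays, had a change of 0.52 that was not called (adjusted p = 0.2413 over all probes). With the median over probes the change of CYP2B6 was 2.42. CYP2E1 rose 27.0-fold (4.76 with an SE of 0.45, adjusted p = 6.93e-07). Within slide 3 the log2 change of CYP2E1 was 4.02 and within slide 4 it was 6.18.

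The P450 enzymes of families 1 to 4 held the highest share of rises among the 31 gene lists examined. Of 30 members tested, 14 were called higher (46.7%, against 1.73% of all genes) and 1 lower (3.33%, against 4.18%), with a median log2 change of 1.35. CYP2A7 rose by 3.75 and CYP2A13 by 3.35 on the log2 scale, but the CYP2A genes are nearly alike in sequence and these probes may read more than 1 of them. The same holds for CYP3A7, at 2.92, whose sequence is close to that of CYP3A4. CYP1A2, the caffeine-oxidising enzyme, rose 4.06-fold (adjusted p = 9.54e-05), from −1.58, −1.76, −1.47 and −2.49 to 0.05, 0.26, 0.19 and 0.28. CYP2C19 rose by 2.81 and the fatty acid hydroxylases CYP4F2 and CYP4F3 by 2.28 and 2.23. CYP4F22, an enzyme of skin lipid synthesis, was the single member called lower (log2 change −2.01, adjusted p = 0.00176) and is named outside the rule, as are CYP3A7, CYP2C19, CYP4F2 and CYP4F3. When D30 − DMSO replicate 4 was left out, the list held 13 higher calls and 0 lower, and CYP4F22 was not called.

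**Figure D3:**
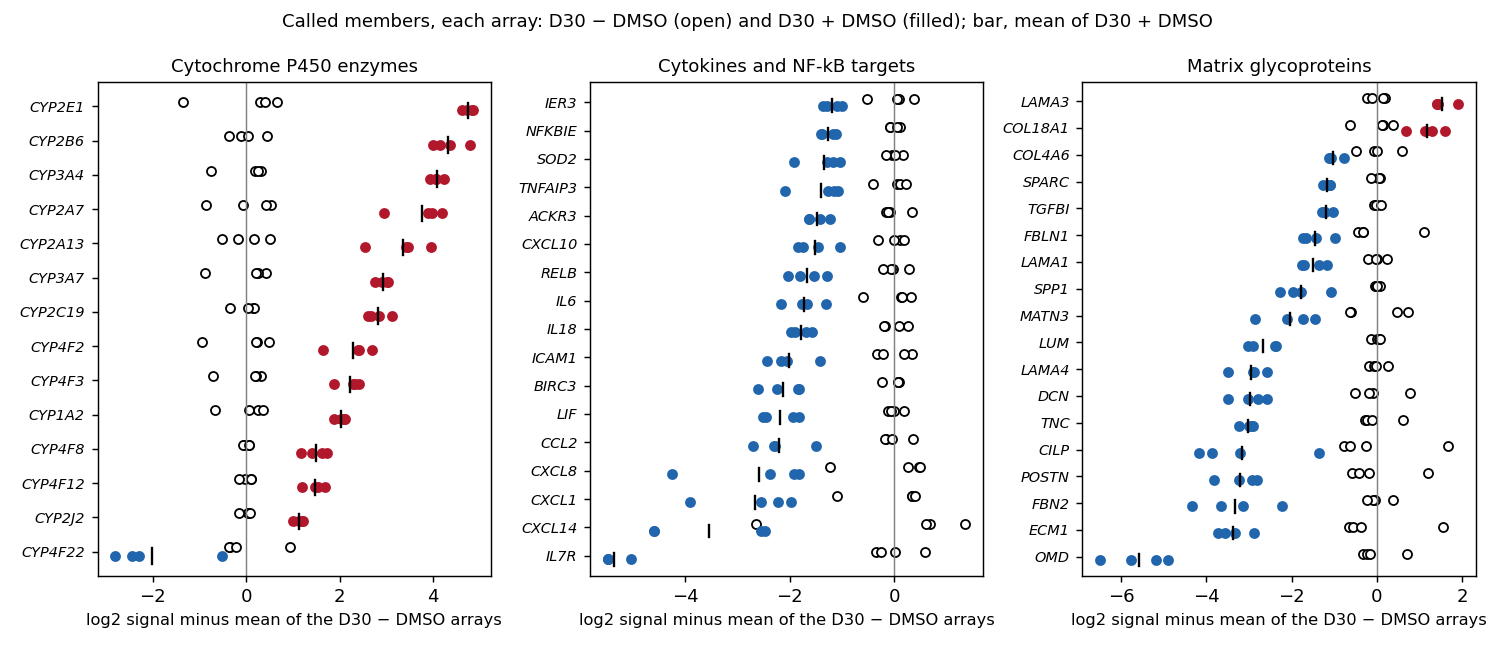
Every array of D30 − DMSO (open circles) and D30 + DMSO (filled circles, bar at their mean) for called members of the P450, cytokine and matrix lists, as log2 signal minus the mean of the D30 − DMSO arrays of that gene (horizontal axes). The 13 higher P450 genes drawn lie to the right of 0, the 17 cytokine and NF-kB genes to the left, and the matrix list holds 16 lower and 2 higher genes.

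Other drug-metabolising enzymes had calls in both directions. Of 51 oxidation and conjugation enzymes tested, 7 were called higher (13.7%, against 1.73% of all genes) and 4 lower (7.84%, against 4.18%). AOX1 (aldehyde oxidase) read 3.92, 4.04, 4.13 and 3.63 without DMSO and 5.69, 5.79, 5.87 and 5.92 with it, a 3.70-fold rise (adjusted p = 2.02e-06). GLYAT, which couples glycine to benzoate, rose 3.86-fold (adjusted p = 0.0045) but lost its call in 13 of the 23 alternatives. Among the falls were 2 of the 5 sulfotransferases tested. SULT1E1, which inactivates oestrogens, read −1.71, −1.47, −1.68 and −2.95 without DMSO, was well above background on no D30 + DMSO array and was at least 19.6-fold lower (adjusted p = 2.79e-06). SULT1B1, a sulfotransferase for thyroid hormone, fell 5.95-fold (adjusted p = 5.56e-06). UGT2B4, a glucuronosyltransferase for bile acids, had a log2 change of 0.75 that was not called (adjusted p = 0.212). When D30 − DMSO replicate 4 was left out, the list held 5 higher and 5 lower calls.

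Among 35 nuclear receptors and partners tested, 3 were called higher (8.57%, against 1.73% of all genes) and 1 lower (2.86%, against 4.18%). NR1I3 (CAR) read −0.57, −0.79, −1.01 and −2.11 without DMSO and 1.52, 1.29, 1.71 and 0.72 with it, a 5.38-fold rise (adjusted p = 0.000265) with no overlap. NR0B2 (SHP), a corepressor induced by bile acids, rose 2.94-fold (adjusted p = 0.00214) and lost its call in 8 of the 23 alternatives. VDR (vitamin D receptor) fell 2.54-fold (adjusted p = 1.84e-05). NR1I2 (PXR) had a log2 change of 1.04 (SE 0.26) and PPARA, the receptor for fatty acids, one of 0.94 (SE 0.23), both outside the threshold (adjusted p = 0.00836 and 0.00802). PPARGC1A, the coactivator of fasting, had a change of −0.98, just under 2-fold (adjusted p = 0.000318). Leaving out D30 − DMSO replicate 4 gave 1 higher call.

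No liver-enriched transcription factor was called, against 5.92% of all genes tested. Of 26 tested, 17 had a 95% interval within 2-fold in both directions, and 5 had an adjusted p below 0.05. CEBPA had a change of 0.55 (adjusted p = 0.0178) and HNF4A one of 0.55 (adjusted p = 0.119), the latter from a single dim probe. The smallest unadjusted p-values in the list were those of FOXA3, at −0.87 (adjusted p = 0.00212), and FOXA2, at 0.58 (adjusted p = 0.007), which open chromatin at liver genes.

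**Figure D4:**
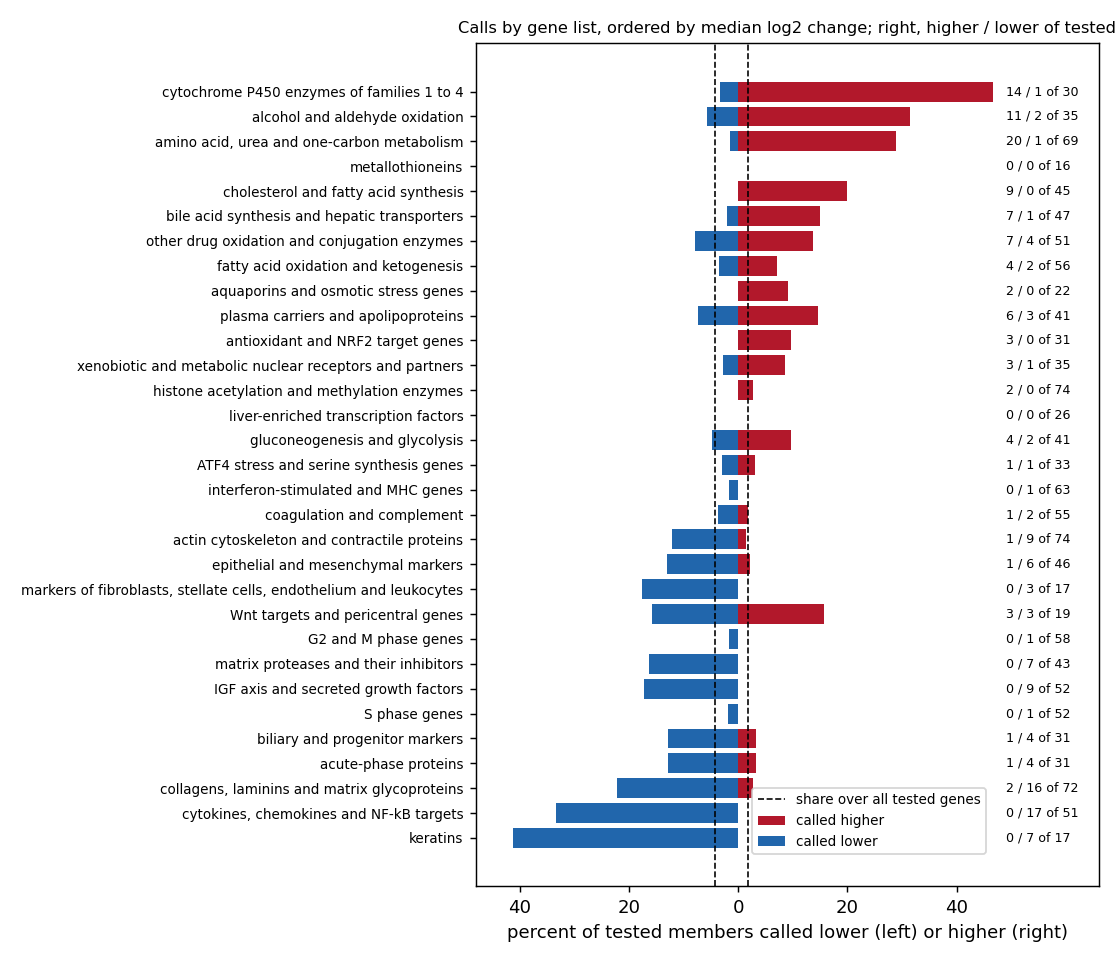
Percentage of tested members called higher (right, red) or lower (left, blue) at D30 + DMSO in each of 31 gene lists, ordered by their median log2 change, with the counts beside the bars. Dashed lines mark the shares over all genes tested (1.73% higher, 4.18% lower). P450 enzymes lead the rises, and keratins and cytokines the falls.

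Amino acid metabolism held the largest number of rises of any list, though not the largest share. Of 69 enzymes of amino acid, urea and one-carbon metabolism tested, 20 were called higher (29%, against 1.73% of all genes). In this list 1 was lower (1.45%, against 4.18%), and the median log2 change was 0.63. GNMT, which sets the ratio of methyl donor to product, read −0.90, −1.25, −1.34 and −1.90 without DMSO and 2.54, 2.25, 2.64 and 2.05 with it, a 13.2-fold rise (adjusted p = 7.36e-08). AGXT, which removes glyoxylate in peroxisomes, rose 5.29-fold (adjusted p = 1.93e-05), and CTH, the last enzyme of transsulfuration, 2.69-fold (adjusted p = 0.000361). GLS2 (liver glutaminase) rose 7.87-fold and MAT1A, which makes the methyl donor, 3.27-fold. Outside the naming rule, CDO1, the cysteine dioxygenase, rose by 1.71 on the log2 scale. HAL, the histidine-degrading enzyme, was the single member called lower (4.46-fold, adjusted p = 0.00332), and 12 alternatives ended that call. CPS1, the entry enzyme of the urea cycle, read 4.25, 4.42, 4.59 and 3.51 without DMSO and 3.73, 3.65, 2.65 and 0.79 with it, and was not called (adjusted p = 0.0446). On the remaining arrays without D30 − DMSO replicate 4, the list held 18 higher calls and 0 lower.

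Of 35 genes of alcohol and aldehyde oxidation tested, 11 were called higher (31.4%, against 1.73% of all genes) and 2 lower (5.71%, against 4.18%), with a median of 0.70. ALDH2, the mitochondrial enzyme that clears acetaldehyde, rose by 1.60 on the log2 scale and CAT (catalase) by 1.38, both named outside the rule. RDH5 (retinol dehydrogenase) rose 3.64-fold (adjusted p = 2.96e-06), SRD5A2 (steroid 5-alpha-reductase) 5.32-fold (adjusted p = 5.77e-06) and DHRS2 9.04-fold (adjusted p = 1.32e-05). The alcohol dehydrogenases ADH1B and ADH4 had changes of 0.89 and 0.95 that were not called (adjusted p = 0.204 and 0.173). ALDH1A3 was called lower but was above background on 1 of the 4 D30 − DMSO arrays and on no D30 + DMSO array. With D30 − DMSO replicate 4 left out, the list held 8 higher and 2 lower calls.

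Of 45 genes of cholesterol and fatty acid synthesis tested, 9 were called higher (20%, against 1.73% of all genes) and 0 lower, with a median of 0.57. DGAT2, which makes triglyceride, read 1.51, 1.26, 1.44 and 1.43 without DMSO and 3.31, 3.09, 3.33 and 3.53 with it (3.75-fold, adjusted p = 2.83e-06). TM7SF2, a sterol reductase, rose 3.02-fold (adjusted p = 4.42e-06), ACSS2, which makes acetyl-CoA from acetate, 2.64-fold and DHCR7, the last step of cholesterol synthesis, 2.28-fold. HMGCS1 (0.82), SQLE (0.39) and SCD (0.22) were not called. The list held 6 higher calls without D30 − DMSO replicate 4. Of 56 genes of fatty acid oxidation tested, 4 were called higher (7.14%, against 1.73%) and 2 lower (3.57%, against 4.18%). EHHADH rose 2.67-fold and ACAA1 2.44-fold, both of them peroxisomal oxidation enzymes, and PDK4, a brake on glucose oxidation, 2.15-fold. EHHADH and PDK4 lost their calls in 10 and 14 of the 23 alternatives. VNN1 (pantetheinase) fell 4.21-fold and the lipid droplet protein CIDEC 2.88-fold (adjusted p = 5.41e-07). CPT1A, rate-setting in mitochondrial oxidation, had a change of 0.07.

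In glucose metabolism 4 of 41 tested members were called higher (9.76%, against 1.73%) and 2 lower (4.88%, near the 4.18% of all genes). PCK1, the cytosolic gluconeogenic enzyme, read −3.55, −7.08, −6.53 and −7.56 without DMSO and −2.03, −2.16, −1.62 and −2.43 with it. Only replicate 1 of D30 − DMSO was well above background, so the fitted 17.4-fold rise (adjusted p = 0.000317) rests mostly on a comparison with background. Within slide 3, which carried that replicate, the log2 change was 1.45, and within slide 4 it was 5.54. PCK2, the mitochondrial form, rose 3.22-fold (adjusted p = 2.97e-06) and G6PC1, which releases free glucose, 3.38-fold (adjusted p = 0.00199). HK2, a hexokinase of dividing and foetal cells, fell 2.84-fold (adjusted p = 0.00103). The list held 2 higher and 2 lower calls without D30 − DMSO replicate 4.

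Of 47 genes of bile acid synthesis and transport tested, 7 were called higher (14.9%, against 1.73% of all genes) and 1 lower (2.13%, against 4.18%). SLC47A1 (MATE1), which exports cationic drugs, rose 4.44-fold (adjusted p = 4.73e-07) and the sterol exporter ABCG8 4.21-fold (adjusted p = 0.00118). SLC17A1, a phosphate and urate carrier, was above background on no D30 − DMSO array and on all D30 + DMSO arrays, and was at least 6.4-fold higher (adjusted p = 0.000198). CYP8B1, which sets the type of bile acid made, had a change of 2.12 (SE 0.52) that was not called (adjusted p = 0.00654). It gained a call in 7 of the 23 alternatives. CYP7A1 (0.87), SLC10A1 (0.58) and ABCB11 (−1.78) were not called either. Among 22 aquaporins and osmotic stress genes 2 rose (9.09%, against 1.73% of all genes) and 0 fell. AQP9, the glycerol channel of hepatocytes, rose 4.00-fold (adjusted p = 3.69e-05) and AQP11 4.74-fold (adjusted p = 6.49e-07). Without D30 − DMSO replicate 4 the transporter list held 4 higher calls.

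ALB read 9.45, 9.31, 9.39 and 9.47 without DMSO and 9.57, 9.28, 10.10 and 9.77 with it, and its change of 0.28 was not called (adjusted p = 0.536). TTR (0.55), APOA1 (1.03) and F2 (0.28) were not called. Of 41 carriers and apolipoproteins tested, 6 were higher (14.6%, against 1.73% of all genes) and 3 lower (7.32%, against 4.18%). APOA4 rose 15.3-fold (adjusted p = 4.93e-07), from −4.43, −5.22, −4.97 and −5.30 to −1.49, −1.28, −1.11 and −0.31. APOA5, which promotes the hydrolysis of plasma triglyceride, rose 4.73-fold (adjusted p = 0.000664). AHSG (fetuin-A), a carrier made in quantity by foetal liver, fell 6.30-fold (adjusted p = 2.3e-07), from 2.57, 2.78, 2.80 and 2.97 to 0.54, 0.50, −0.11 and −0.43, and the plasma glycoprotein A1BG fell as well (log2 change −2.38). Of 55 coagulation and complement genes 1 was higher (1.82%) and 2 were lower (3.64%), shares near those of all genes. SERPIND1 (heparin cofactor) rose 3.81-fold, while CFHR4 and PLAUR, the urokinase receptor, fell 5.23-fold and 4.46-fold.

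Acute-phase and cytokine genes were among the falls, and none of the cytokine list rose. CRP, the acute-phase protein induced by interleukin 6, read −0.70, −0.74, −0.54 and −0.90 without DMSO and −3.05, −3.36, −4.85 and −6.52 with it, a 13.2-fold fall (adjusted p = 4.55e-05) in which the D30 + DMSO arrays differed widely. ITIH3 fell 7.44-fold, IL1RN 5.48-fold and LBP, which binds bacterial lipopolysaccharide, 3.47-fold. A second IL1RN probe had a change of −0.12. SAA1 (−0.79) and HP (0.11) were not called. Over 31 acute-phase genes tested 4 were lower (12.9%, against 4.18% of all genes) and 1 higher (3.23%, against 1.73%). Of 51 cytokines, chemokines and NF-kB targets tested, 17 were lower (33.3%, against 4.18% of all genes), with a median of −0.52. Promoter stretches of 2 chemokines of this list, of the matrix gene ECM1 and of APOA5 are shown because they held a motif of the search. They lie at chr4:73869293-73869392 (plus strand), chr4:73740419-73740568 (plus), chr1:150507899-150508108 (plus) and chr11:116792421-116792560 (minus), end at the base before the start and were chosen after the matches were seen.
CXCL1: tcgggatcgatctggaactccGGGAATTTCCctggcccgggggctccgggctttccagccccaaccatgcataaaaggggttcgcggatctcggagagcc
CXCL8: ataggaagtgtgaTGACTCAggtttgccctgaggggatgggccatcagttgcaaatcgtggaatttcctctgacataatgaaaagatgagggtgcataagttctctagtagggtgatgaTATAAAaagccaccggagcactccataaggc
ECM1: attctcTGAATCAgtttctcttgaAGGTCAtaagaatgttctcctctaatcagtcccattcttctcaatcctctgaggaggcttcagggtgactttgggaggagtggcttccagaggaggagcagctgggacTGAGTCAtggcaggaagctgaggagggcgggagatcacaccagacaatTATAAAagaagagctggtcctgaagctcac
APOA5: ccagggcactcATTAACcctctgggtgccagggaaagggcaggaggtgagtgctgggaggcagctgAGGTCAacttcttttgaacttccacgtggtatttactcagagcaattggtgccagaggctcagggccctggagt
The capitals mark in CXCL1 the NF-kB element GGG, any 2 bases, TTTCC, in CXCL8 and ECM1 the AP-1 element TGA, any 1 base, TCA and the box TATAAA, in ECM1 also AGGTCA, and in APOA5 AGGTCA and the complement of GTTAAT, a further motif of the search. The CXCL8 stretch holds tggaatttcc, which misses the NF-kB letters by 1 base and was not counted as a match. On either strand, the NF-kB letters were in 1.73% of 27305 promoters and 1.96% of those of tested genes. They were in 2.33% of those of higher genes and 2.41% of the 539 promoters of lower genes. The AP-1 letters were in 6.6% of all promoters, in 4.22% of the 11337 promoters of tested genes, in 9.46% of those of lower genes and in 4.19% of the 215 of higher genes. GTTAAT was in 6.22% of all promoters and in 3.75% of those of tested genes. It was in 4.65% of those of higher genes and in 5.19% of those of lower genes. The shares of AGGTCA and TATAAA, given above, also differed between tested and called genes. No difference in share was tested for any of the 13 motifs.

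CXCL1, a neutrophil chemokine, read 2.96, 2.96, 3.02 and 1.52 without DMSO and 0.64, 0.39, 0.06 and −1.30 with it, a 6.36-fold fall (adjusted p = 0.000182) with no overlap. CXCL8 (interleukin 8) read −0.15, −0.11, −0.35 and −1.85 and then −2.44, −2.53, −3.00 and −4.88, a 6.04-fold fall (adjusted p = 0.00359) that 8 alternatives ended. In both chemokines replicate 4 was the lowest array of each condition. CCL2, which draws monocytes, fell 4.59-fold (adjusted p = 8.98e-06) and ACKR3, a scavenger receptor for chemokines, 2.79-fold (adjusted p = 5.4e-06). IL7R, the interleukin 7 receptor, was above background on all D30 − DMSO arrays and on no D30 + DMSO array, and was at least 6.34-fold lower (adjusted p = 6.59e-11). CXCL14 was at least 3.43-fold lower, but 11 alternatives ended its call. Outside the naming rule, the NF-kB targets BIRC3, ICAM1, RELB, TNFAIP3 and SOD2 fell by 2.14, 2.02, 1.67, 1.40 and 1.35 on the log2 scale, and the cytokines LIF and IL6 by 2.18 and 1.73. Without D30 − DMSO replicate 4 the list again held 17 lower calls. Leaving out each array in turn gave 12 to 17, normexp 13 and a t-test at the same thresholds 7. Of 63 interferon-stimulated and MHC genes tested, 1 was lower (1.59%, against 4.18% of all genes), EPSTI1, by at least 2.96-fold. In this list 0 were higher and 47 had a 95% interval within 2-fold.

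The extracellular matrix held 16 lower (22.2%, against 4.18% of all genes) and 2 higher genes (2.78%, against 1.73%) of 72 tested, with a median of −0.45. OMD (osteomodulin), a keratan sulfate proteoglycan, read −0.93, −0.82, −0.75 and 0.12 without DMSO and −6.35, −5.49, −5.77 and −7.08 with it, a fitted 47.9-fold fall (adjusted p = 1.46e-08). Only 1 D30 + DMSO array was well above background for OMD, so this fold rests mostly on background, and under normexp the log2 change was −2.37. ECM1 fell 10.4-fold (adjusted p = 1.41e-05), from 0.01, 0.10, 0.29 and 2.22 to −3.08, −2.90, −2.68 and −2.23, and replicate 4 was its highest D30 − DMSO array. POSTN (periostin) fell 9.20-fold, DCN (decorin) 7.86-fold (adjusted p = 3.39e-06) and LUM (lumican) 6.39-fold (adjusted p = 2.3e-07), and FBN2 (fibrillin) was at least 2.84-fold lower. LAMA4 fell 7.81-fold by its brightest probe (adjusted p = 1.47e-08), while its other 3 probes had changes of −1.12, 0.22 and 0.50. TNC (tenascin) fell by 3.02, and the 2 rises were LAMA3 (1.54), a chain of epithelial laminin, and COL18A1 (1.18), all outside the rule. The collagen and fibronectin genes COL1A1 (−1.14), COL4A1 (−0.20) and FN1 (−0.79) were not called. Without D30 − DMSO replicate 4 the list held 15 lower and 1 higher calls, and under normexp 9 lower and 2 higher.

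Matrix proteases and their inhibitors had 7 lower genes (16.3%, against 4.18% of all genes) and 0 higher of 43 tested. PAPPA, which cleaves IGF-binding proteins, fell 5.86-fold (adjusted p = 6.46e-06), ADAMTS9 4.98-fold, MMP7 2.98-fold (adjusted p = 0.000256), and CTSS (cathepsin S) was at least 3.23-fold lower. MMP2 was called lower too but was above background on no array of either condition, so no fold is given. TIMP1 had a change of −0.42 that was not called. In the actin list, 9 of 74 tested genes were lower (12.2%, against 4.18%) and 1 was higher (1.35%, against 1.73%). TNNT1 (troponin) fell 3.94-fold (adjusted p = 1.34e-05), ACTG2 6.16-fold, RHOBTB1 2.47-fold and CDC42EP1 2.10-fold (adjusted p = 8.42e-05). ACTA2 (−0.53) and TAGLN (−0.12) were not called.

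Markers of other liver cells were examined beside these falls. Of 31 markers of fibroblasts, stellate cells, endothelium and leukocytes, 17 could be tested and 3 were lower (17.6%, against 4.18% of all genes). These 3 were DCN, LUM and TEK, an endothelial receptor that was at least 2.79-fold lower. The log2 of the summed scaled signal of the 17 markers was 5.04 to 5.31 on the D30 − DMSO arrays and 4.94 to 5.17 on the D30 + DMSO arrays. Such a sum is set mostly by its brightest probes, so it says little about the dimmer markers or about any cell type. COL1A2, PDGFRA, PDGFRB, LRAT, PECAM1, VWF, LYVE1, CD3E and LYZ were not well above background on all 4 arrays of any condition and could not be tested. The part of other cell types in these falls was not tested.

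Several keratins fell, most of them known from stratified epithelium, while the main keratins of hepatocytes and bile duct did not pass the test. Of 17 keratins tested, 7 were lower (41.2%, against 4.18%) and 0 higher. KRT6A, an early keratin of wounded epidermis, read 0.65, 0.73, 0.61 and 0.89 without DMSO and −4.22, −4.38, −4.90 and −5.23 with it, a 42.3-fold fall (adjusted p = 2.05e-07), though its probe may also read KRT6B and KRT6C, which are nearly alike. KRT4 read 0.09, 0.09, 0.11 and 0.14 and then −2.71, −3.08, −2.58 and −3.15, a 7.92-fold fall (adjusted p = 1.34e-08). KRT5, the basal cell keratin, fell 8.46-fold (adjusted p = 5.95e-05), and KRT23 was at least 8.1-fold lower. In all 4 genes the conditions did not overlap, as in 917 of the 929 lower genes and 2787 of all genes tested. KRT18 (−0.64), KRT8 (−0.23), KRT19 (−0.22) and KRT7 (0.12) were not called. Only 2 of the 7 falls were called when probes had to be above background on all 8 arrays, and 3 under normexp.

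Other biliary and progenitor markers went both ways. Of 31 tested members 4 were lower (12.9%, against 4.18% of all genes) and 1 higher (3.23%, against 1.73%). SPP1 (osteopontin) read 2.29, 2.41, 2.32 and 2.35 without DMSO and 0.06, 0.37, 0.57 and 1.27 with it (3.43-fold lower, adjusted p = 2.97e-05). JAG1, a Notch ligand, fell 3.27-fold (adjusted p = 6.23e-06) and ITGB4, an integrin of the basement membrane, 3.98-fold. SOX9, a transcription factor of bile duct cells, rose 2.48-fold (adjusted p = 0.000739), from between −3.24 and −2.83 to between −2.08 and −1.50. Of 46 epithelial and mesenchymal markers tested, 6 were lower (13%, against 4.18% of all genes) and 1 higher (2.17%, against 1.73%). Among the falls were TGFB2 (6.05-fold), S100A4 (4.37-fold), FOSL1 (2.76-fold), a subunit of AP-1, and TGFB3 (2.67-fold). CDH1 (−0.20) and VIM (−0.57) were not called.

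Of 52 IGF axis genes and secreted growth factors tested, 9 were called lower (17.3%, against 4.18% of all genes) and 0 higher. IGFBP6, which binds IGF2, read between −1.04 and −0.01 without DMSO and between −3.52 and −3.34 with it, a 6.36-fold fall (adjusted p = 1.4e-06). DKK1, an inhibitor of Wnt signalling, read 2.44, 2.32, 2.34 and 4.05 and then 0.37, 0.08, 0.08 and 0.27 (log2 change −2.58, adjusted p = 0.000146). EREG, a ligand of the epidermal growth factor receptor, fell 5.22-fold and ANGPTL8 3.93-fold, and outside the rule the activin subunit gene INHBB fell by 1.72 and IGFBP7 by 1.36 on the log2 scale. In DKK1 and IGFBP6, replicate 4 was the highest D30 − DMSO array by a wide gap. IGFBP3 (−1.07) and IGFBP1 (0.80) were not called.

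SPOCD1, a gene for a nuclear protein known from the silencing of transposons in germ cells, had the lowest fitted change, though at the floor such values have no order. It read −2.74, −2.51, −2.60 and −0.26 on the D30 − DMSO replicates and −9.14, −9.14, −9.03 and −7.30 on the D30 + DMSO replicates, where −9.14 is the floor given to signals at or below background. No D30 + DMSO array was well above background, so SPOCD1 was at least 19.5-fold lower (adjusted p = 1.7e-07). The same kind of bound was at least 9.4-fold for the non-coding RNA FAM99A, 10.9-fold for SHISAL2B, 6.09-fold for CLCA2, 5.36-fold for TMEM156, 4.96-fold for DNM3 and 13.4-fold for KRT6C. DNER, a transmembrane ligand of Notch, read −2.35, −2.97, −3.02 and −0.45 and then −6.81, −8.00, −9.14 and −4.44 (29.8-fold lower, adjusted p = 0.000384), and 1 D30 + DMSO array was above background. In SPOCD1 and DNER, replicate 4 was the highest array of each condition.

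**Figure D5:**
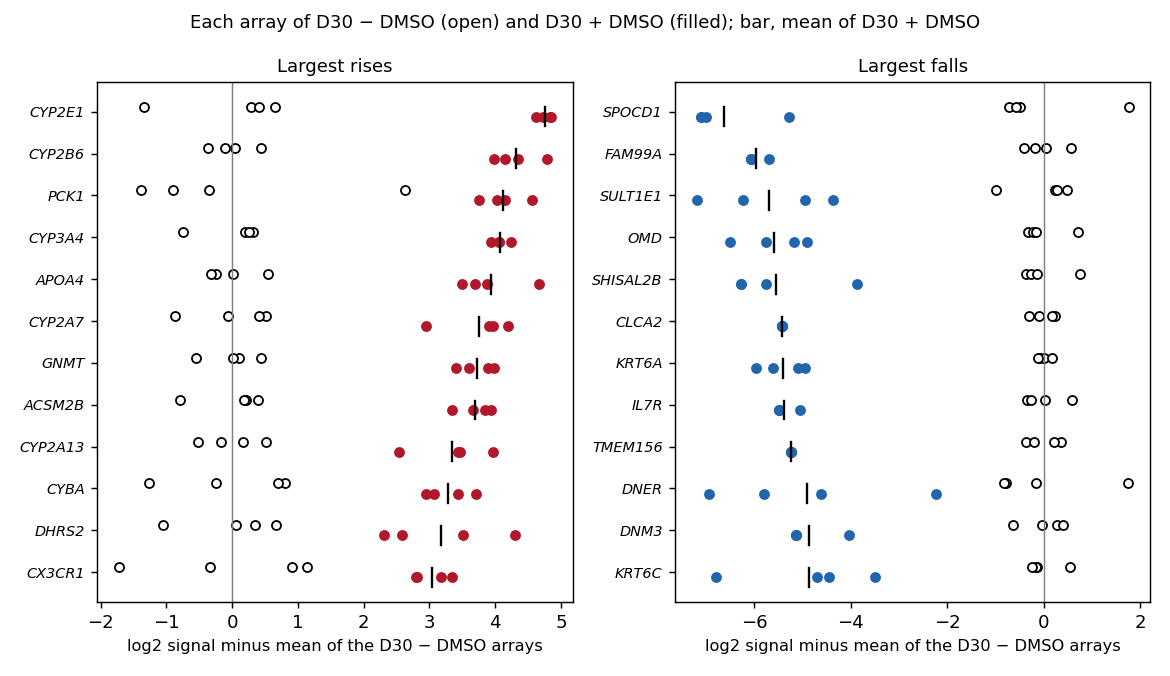
Every array of D30 − DMSO (open circles) and D30 + DMSO (filled circles, bar at their mean) for the 12 largest rises (left) and 12 largest falls (right), as log2 signal minus the mean of the D30 − DMSO arrays of that gene (horizontal axes). In all 24 genes the conditions do not overlap, against 2780 (all above) and 2787 (all below) of all 22214 genes tested. The 24 genes were chosen as the largest changes on these same arrays. Open circles far from the rest are mostly replicate 4, as in SPOCD1, CYP2E1 and DNER, or replicate 1 in PCK1.

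The remaining lists held few calls each, to be set against 1.73% higher and 4.18% lower over all genes tested. Of 52 S phase genes tested 1 was called (1.92%, POLE2, lower, adjusted p = 0.00207). Of 58 G2 and M phase genes 1 was called (1.72%, ASPM, lower, adjusted p = 0.00121). The medians were −0.33 and −0.27, and both shares were below that of all genes. MCM2 (−0.74), CDK1 (−0.63) and PCNA (−0.14) were not called. Of 74 histone acetylation and methylation genes 2 were higher (2.7%, near the share of all genes) and 0 lower, and 57 had a 95% interval within 2-fold. The 2 rises were the bromodomain proteins BRD2 (2.12-fold, adjusted p = 1.26e-05) and BRD3. BRD3 rose 2.55-fold by its brightest probe, while its other 2 probes had changes of 0.05 and 0.21. EZH2 and EP300 had changes of 0.22 and 0.21. Among 31 antioxidant and NRF2 targets 3 rose (9.68%) and 0 fell. The rises were GPX2, a glutathione peroxidase (3.82-fold, adjusted p = 3.3e-05), the ferritin light chain FTL (2.51-fold) and GCLC, the first enzyme of glutathione synthesis (2.28-fold). HMOX1 had a change of 0.42 that was not called. None of 16 metallothionein and zinc genes was called, although their median was 0.61. MT2A read 8.01, 7.59, 7.85 and 8.42 without DMSO and 8.77, 8.40, 8.95 and 8.61 with it (adjusted p = 0.0398). Among 33 ATF4 target genes 1 was lower and 1 higher (3.03% each). SLC7A1, a carrier of arginine, was lower (adjusted p = 0.00303, a call lost in 11 of the 23 alternatives) and CTH higher, while ASNS (0.17) was not called. Of 19 Wnt and pericentral genes 3 were higher and 3 lower (15.8% each), LECT2 by at least 4.89-fold, whereas AXIN2 (−0.64) and GLUL (−0.44) were not called.

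Set beside the other conditions of the series, the called genes mostly lay at an end of the range at D30 + DMSO. The mean of D30 + DMSO was the highest of the 5 conditions for 374 of the 385 higher genes and the lowest for 823 of the 929 lower genes. It was above that of D15, the state just before DMSO was added, for all 385 higher genes, and below it for 928 of the 929 lower genes. These counts describe genes chosen by 1 of the differences they contain and were not tested.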

How the data were processed

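Total RNA of HepaRG cells was labelled with Cy3 and hybridised to one-colour Agilent human 8x60K arrays. Groups and replicate numbers came from the sample titles. The deposited scanner files hold each spot's processed signal intensity, which the authors obtained with Agilent Feature Extraction (version 10.7.1.1 in the file headers, 10.7.3.1 in the submitters' processing notes) after background subtraction within the array, and raw foreground and background intensities. The deposited table of log2 values, which the authors made with GeneSpring GX and whose scale and centring are not stated, served only as an alternative.

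Spots of a probe were averaged, control spots and outlier flags left out, and signals scaled to the 75th percentile of each array, set to at least 1 and converted to log2. Scaling came before the floor, so the lowest printed values have no order. A probe was kept if well above background on all 4 arrays of any of the 5 conditions, and the brightest kept probe stood for a gene. Symbols were updated through RefSeq accessions where these matched, which gave 14232 of 22214 genes a current symbol. All 20 arrays were fitted with limma 3.58.1 in R 4.3.3 (package data.table, version 1.17.8) without covariates, and genes were called where the change passed 2-fold and the p-value, adjusted after Benjamini and Hochberg, was under 0.005. Limma replaced the methods' t-test, which is an alternative. Scripts were tested on simulated data.

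Where no array of the dimmer condition was well above background, the fold is a lower bound, set by the higher, per array, of the probe's own signal and the lowest signal well above background. The text names the markers of the comparison, the 12 largest rises and falls with a current symbol and measured in the higher condition, up to 4 called members of each list, members marked as key in the lists, and, for lists without a call, 2 members of the smallest p. Others are said to lie outside that rule. Some genes that the rule names are not reported here, though counts include them. The members and gene lists were chosen with earlier results of these data known. The alternatives were other normalizations, background correction, filters, floors, probes, thresholds and tests, blocks for slide, scan session and replicate number, and leaving out each array.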

Additional observations from a re-analysis of the deposited data

Results flagged for a closer look

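An array of 1 condition lay far from its 3 fellows for 55 of 367 groups of 4 values of the genes named above (15%), its gap to the nearest fellow taking up so much of the range of the group that it passed Dixon's 95% limit, which chance passes in about 1 of 20 groups. D30 − DMSO held 38 of them, and in 37 of those the array was replicate 4. In brackets stands the log2 signal of the array that lay apart.

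D30 − DMSO replicate 4 was the lowest array of its condition, far from the rest, for ABCB11 (−4.81), ACTG2 (−5.26), ADH1B (0.88), ADH4 (2.59), BIRC3 (3.21), CDH1 (0.42), CFHR4 (0.91), CTH (0.76), CXCL1 (1.52), CXCL8 (−1.85), CYP3A4 (1.89), CYP3A7 (2.65), CYP4F3 (1.96), CYP8B1 (0.66), EPSTI1 (−4.37), G6PC1 (−0.03), GLYAT (1.26), ITIH3 (−1.98), MAT1A (4.54), NR1I2 (−1.67), SCD (1.62), SULT1B1 (−1.82) and SULT1E1 (−2.95). Among these are P450 enzymes, chemokines and amino acid enzymes. It was the highest array for ACKR3 (2.52), COL4A1 (−1.8), CYP4F22 (1.69), DKK1 (4.05), ECM1 (2.22), FTL (6.94), GLUL (4.39), IGFBP3 (0.1), IGFBP6 (−0.01), KRT6C (−1.81), OMD (0.12), S100A4 (1.03), SPOCD1 (−0.26) and TIMP1 (5.03), which include matrix, growth factor and keratin genes.

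For CYP3A5 (5.19) and FAM99A (−8.77) the highest array was D30 + DMSO replicate 1. For ALDH1A3 (−7.04), IL7R (−8.7) and MMP2 (−7.95) the highest array was D30 + DMSO replicate 2. For CAT (4.07) and DNM3 (−8.04) the highest array was D30 + DMSO replicate 3. For ADAMTS9 (−1.36), LAMA3 (0.83), SLC7A1 (−3.3) and SPOCD1 (−7.3) the highest array was D30 + DMSO replicate 4. For CIDEC (4.5) the lowest array was D30 + DMSO replicate 2. For CTH (2.51), F2 (5.32), HAL (−6.86), SAA1 (6.48) and SULT1B1 (−4.59) the lowest array was D30 + DMSO replicate 4. For HMOX1 (2.6) the highest array was D30 − DMSO replicate 1. ALDH1A3 and MMP2 were above background on no D30 + DMSO array, and neither were FAM99A, IL7R, DNM3 and SPOCD1, so the distances between their D30 + DMSO arrays are distances within background.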

How the results depend on the processing

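The counts of 385 higher and 929 lower genes were computed again under 23 alternatives. Those that moved a count by over 1.5 times were the normexp background correction (409 lower), probes above background on all 8 arrays (610 lower), the methods' t-test at the same thresholds (197 higher and 384 lower) and a threshold of 1.5-fold (797 higher). The share of lower genes among the called fell from 70.7% to 61% under normexp. Leaving out each array in turn gave 291 to 371 higher and 778 to 892 lower genes. Of 133 called genes named above, 54 kept their call under every alternative run for them, 73 did so with the t-test left aside, and 130 kept their direction. The t-test ended 64 calls and normexp 34. Of genes that the main fit did not call, CYP8B1 gained a call in 7 alternatives, IGFBP3 and PPARGC1A in 5 each and CYP3A5 in 3. The exceptions in direction were ALDH1A3 (0.031) and MMP2 (0.053) under normexp, and LAMA4 (0.50) with probes above background on all 8 arrays, where another probe stood for the gene. Of genes that were not called, on leaving out each array in turn, TAGLN ranged from −0.198 to 0.00948, HP from −0.030 to 0.206 and CDH1 from −0.47 to 0.115, the signs turning without D30 − DMSO replicate 4, D30 + DMSO replicate 3 and D30 + DMSO replicate 4, in that order. Apart from the use of another probe, the cause was not tested. Beside the genes so marked above, IL6 and SLC7A1 lost their calls in 11 alternatives, CX3CR1 in 10, COL18A1, IL1RN, CFHR4, ACTG2 and POLE2 in 9, LBP in 8, TGFB3 in 7, G6PC1, GCLC and CYP4F22 in 6, and ALDH1A3 and ASPM in 5.

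The r of deviations over genes between arrays of the same replicate number was 0.577, 0.362, −0.0679 and 0.699 for replicates 1 to 4. Between arrays of unlike number it ran from −0.63 to 0.397, the latter on a shared slide. The labels do not say whether a number marks a shared culture. The pairs numbered 1 and 4 also shared a slide, so slide and pairing cannot be told apart there. With replicate number as a block, 469 genes were higher and 1075 lower. Weak signal limits what can be said: on 134 of the lower genes no D30 + DMSO array was above background, so a fold, where given, is a bound. With 4 arrays against 4, the smallest exact permutation p for a single gene would be 0.0286.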
